A study of Mus musculus with 21 samples.

Results

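Enteric neurons and glia were followed through 8 of their genes in colon RNA of germ-free (GF) mice, whose arrays were labelled GF Card9-/- or GF WT. The neuron genes were Uchl1, Elavl4, Ret, Nos1 and Vip, and the glia genes were Sox10, S100b and Gfap. They were chosen by gene name, as every non-control probe of the arrays that carried a member's symbol or was designed for its RefSeq transcript, and each gene was then read from its brightest probe, the probe with the highest mean log2 value over the arrays of a day. These 8 genes stand among 32565 named genes on the day 0 array design, where they had 13 probes, and among 27316 named genes on the day 7 design, where they had 12 probes. Probe positions are those of the array files, on mm9, and the exon or UTR a probe lies in was not determined here.

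The enteric nervous system lies within the gut wall, in a myenteric plexus between the muscle layers and a submucosal plexus under the mucosa. Its neurons derive from neural crest cells that depend on the receptor tyrosine kinase Ret, and its motor neurons relax the muscle with nitric oxide, made by Nos1, and with vasoactive intestinal peptide, the product of Vip. Enteric glia surround these neurons, keep the transcription factor Sox10 of their crest origin, contain the calcium-binding protein S100b and carry variable amounts of the filament protein Gfap.

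All mice were male, germ-free and of the C57BL/6J strain, so that no group held a microbiota, and their age was not given in the sources used here. The day 0 arrays, taken before colitis, comprised 7 labelled GF Card9-/- and 6 labelled GF WT, and the day 7 arrays, taken after 7 days of 2% dextran sulfate sodium (DSS) in the drinking water, comprised 4 of each label. RNA came from total colon tissue, all layers of the wall together, and was hybridized to 1-color Agilent arrays, with 1 sample per array. In such bulk tissue, fewer cells of a type and less RNA per cell cannot be told apart. The 2 days used different array designs and were analysed separately, so levels were never compared between days. Whether the numbered samples of a label came from separate mice was not stated for the arrays, so p-values measure only the spread between these samples.

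Card9, the deleted gene, went against the labels. At day 0 its processed signal, a background-subtracted brightness in arbitrary units, was 408 to 565 and well above background (a flag the scanner software sets per spot) on 7 of 7 arrays labelled GF Card9-/-, and 3.70 to 6.85 and well above background on 0 of 6 labelled GF WT. At day 7 it was 224 to 368 on the 4 arrays labelled GF Card9-/-, and among those labelled GF WT it reached 204 on replicate 1, the only such array well above background. Where the probes lie relative to the deleted part of the gene was not given in the sources used here. Every direction below is therefore that of the labels. Day 7 differences of the neuron and glia genes named above are also given without GF WT replicate 1. So are the median differences of gene lists, and the Pearson correlations of gene pairs and with smooth muscle genes. Day 7 values of single list genes, Spearman correlations, colonocyte correlations and the search for similar genes are given only with that array. Spots well above background made up 54.5% to 64.9% of an array at day 0 and 42.2% to 57.1% at day 7, and 0 spots were saturated. Colonocyte genes were well above background on all arrays of both days for 9 of 9 list members, and smooth muscle genes for 11 of 12. Pancreatic enzyme genes, read as a list score (each gene's log2 value relative to its average for that day, averaged over the list), stood at 11.13 on GF Card9-/- replicate 7 of day 0 against at most -0.17 on the other day 0 arrays, and at 4.42 and 8.77 on GF Card9-/- replicates 2.1 and 6 of day 7.

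Promoter windows were in the RefSeq tables for 6 of the 8 genes. Those of Vip and S100b are shown because they were the neuron and glia pair with the highest correlation over the day 0 arrays, and that of Gfap as the other glia gene with a window. Each window runs 5′ to 3′ along the gene from 250 bases before its start site to 50 after it, on GRCm38.p6. Vip lies at chr10:5638968-5639267 on the plus strand, S100b at chr10:76253586-76253885 on the plus strand and Gfap at chr11:102897151-102897450 on the minus strand. Capitals mark matches, on either strand, to the TATA box TATAAA, to the cAMP response element core TGACGT, to the Sox-type letters AACAAT and also to ACAAAG, and to the STAT-type letters TTCNNNGAA.
Vip: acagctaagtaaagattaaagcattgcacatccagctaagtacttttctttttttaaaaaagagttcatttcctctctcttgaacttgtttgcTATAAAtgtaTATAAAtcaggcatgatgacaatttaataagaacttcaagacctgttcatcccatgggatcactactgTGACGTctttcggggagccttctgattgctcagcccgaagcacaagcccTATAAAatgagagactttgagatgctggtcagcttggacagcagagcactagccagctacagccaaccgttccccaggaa
S100b: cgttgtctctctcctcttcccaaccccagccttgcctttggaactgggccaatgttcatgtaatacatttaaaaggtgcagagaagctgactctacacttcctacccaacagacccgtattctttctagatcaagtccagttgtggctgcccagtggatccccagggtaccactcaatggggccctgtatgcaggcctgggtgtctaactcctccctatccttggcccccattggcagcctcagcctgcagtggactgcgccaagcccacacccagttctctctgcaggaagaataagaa
Gfap: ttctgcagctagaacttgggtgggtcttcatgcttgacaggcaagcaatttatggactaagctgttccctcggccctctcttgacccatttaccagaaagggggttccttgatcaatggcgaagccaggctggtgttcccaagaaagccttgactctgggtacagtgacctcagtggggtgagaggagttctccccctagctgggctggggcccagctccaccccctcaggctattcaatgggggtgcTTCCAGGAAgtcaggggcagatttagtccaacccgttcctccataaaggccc
The Vip window held 3 matches to TATAAA and 1 to TGACGT, letters that 13.6% and 7.51% of all 32851 windows of this length held. The Gfap window held 1 match to TTCNNNGAA, found in 8.3% of windows, and the S100b window held none of the 5. The Sox-type letters AACAAT were in 3521 and the letters ACAAAG in 6147 of the 32851 windows, and in none of these 3. These are matches of letters in a window only.

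At day 0 the 8 genes did not differ detectably between the labels, although all 8 brightest probes averaged lower on the arrays labelled GF Card9-/-. The median log2 difference was -0.24, with Sox10 the furthest at -0.55 and Gfap the nearest to 0 at -0.03. None of the 8 passed an adjusted p of 0.05 (limma, Benjamini-Hochberg over all probes), none had an unadjusted p under 0.05 (lowest 0.128), and none had labels that did not overlap. All 8 were well above background on all 13 arrays. Over all 47410 detected probes, 12 (0.0253%) passed the adjusted threshold, 5.84% the unadjusted one and 0.458% had labels that did not overlap. Over all genes, 44.1% lay below 0 and the median was 0.01.

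Uchl1 and Elavl4 mark neurons in general. Uchl1, a ubiquitin hydrolase abundant in neuronal cytoplasm, was read by a probe at mm9 chromosome 5, 67078408 to 67078467. Its log2 value was 11.90, 13.37 and 13.70 (lowest, median and highest) on the 7 arrays labelled GF Card9-/- and 13.15, 13.49 and 13.63 on the 6 labelled GF WT. The GF Card9-/- values thus lay on both sides of the GF WT range, with 2 arrays below it and 2 above it, and the difference was -0.25 (95% interval -0.80 to 0.30, limma adjusted p = 0.912), and -0.040 without replicate 5 of GF Card9-/-. Elavl4, an RNA-binding protein of neurons (chromosome 4, 109877455 to 109877514), measured 7.98, 8.85 and 8.98 against 8.50, 8.78 and 8.92. Its difference was -0.07 (95% interval -0.40 to 0.26, limma adjusted p = 0.966), the narrowest interval of the 8 genes.

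Ret, the receptor for the GDNF family of ligands (chromosome 6, 118101791 to 118101850), had its lowest value far from the rest of its label, on an array labelled GF Card9-/-. It measured 7.07, 8.65 and 8.88 on the arrays labelled GF Card9-/- (SD 0.61, n = 7) and 8.44, 8.58 and 8.83 on those labelled GF WT (SD 0.14, n = 6). The low end was a single array, replicate 5, whose next neighbour was at 8.17. The difference was -0.23 (SE 0.24, limma adjusted p = 0.912), and without replicate 5 it was -0.02.

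Vip and Nos1 are transmitter genes used by inhibitory motor neurons, and which neurons gave their signal in total colon was not determined. Vip (chromosome 10, 4699681 to 4701551, a probe whose coordinates span more than its own length) measured 9.02, 9.77 and 10.30 on arrays labelled GF Card9-/- and 9.62, 10.22 and 10.35 on those labelled GF WT, a difference of -0.28 (SE 0.21, limma adjusted p = 0.912), or -0.15 without replicate 5 of GF Card9-/-. Nos1, the neuronal nitric oxide synthase (chromosome 5, 118402831 to 118402890), measured 5.05, 5.88 and 6.11 against 5.05, 5.87 and 6.26. The 2 ranges of Nos1 nearly coincided, and its lowest values, both 5.05, were on GF Card9-/- replicate 3 and GF WT replicate 2, whereas GF Card9-/- replicate 5 lay at 5.65. Its difference was -0.08 (95% interval -0.54 to 0.38, limma adjusted p = 0.977).

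**Figure D1:**
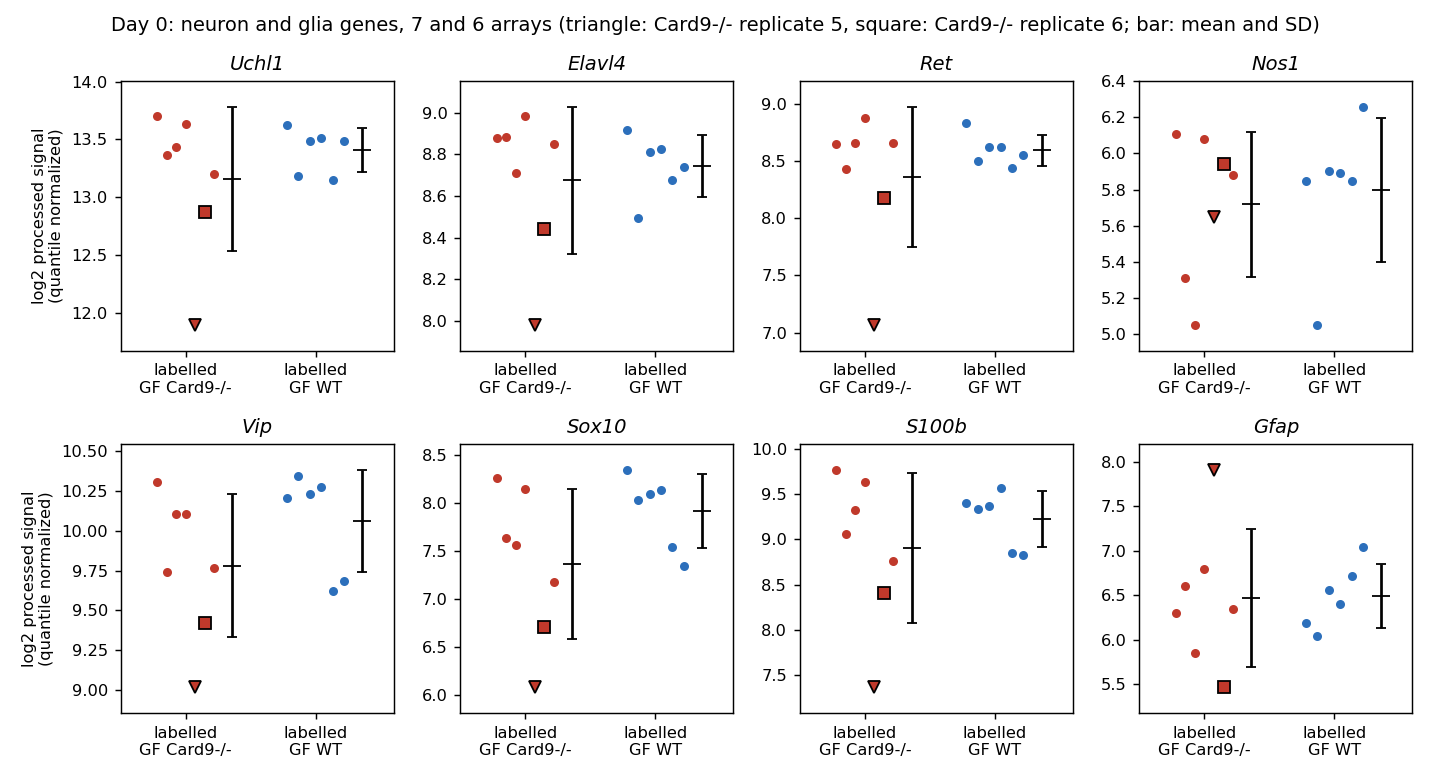
Quantile normalized log2 processed signal (vertical axis, a scale of its own for each gene) of the 8 genes on each day 0 array, by genotype label, 7 and 6 arrays. Bars give the mean and SD of a label. The triangle (GF Card9-/- replicate 5) is lowest for 6 of the 8 genes and highest for Gfap, and the square is GF Card9-/- replicate 6.

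The glia genes Sox10 and S100b were low on the same arrays. Sox10 (chromosome 15, 78985343 to 78985402), the crest transcription factor that glia retain, measured 6.08, 7.57 and 8.26 on arrays labelled GF Card9-/- and 7.34, 8.06 and 8.34 on those labelled GF WT. Replicates 5, 6 and 7 of GF Card9-/-, 3 of its 7 arrays, lay below every GF WT array. The means were 7.37 ± 0.78 (SD, n = 7) and 7.91 ± 0.39 (SD, n = 6), and the difference was -0.55 (95% interval -1.27 to 0.18, limma adjusted p = 0.912), and -0.33 without replicate 5. S100b, the glial calcium-binding protein (chromosome 10, 75723783 to 75723842), measured 7.36, 9.06 and 9.77 against 8.82, 9.35 and 9.57, with the same 3 arrays below the GF WT range and 2 above it. Its difference was -0.32 (95% interval -1.06 to 0.43, limma adjusted p = 0.913), and -0.062 without replicate 5.

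Gfap, the intermediate filament of glia (chromosome 11, 102751813 to 102751872), was read by probes that disagreed on 1 array. Its brightest probe measured 5.47, 6.35 and 7.91 on arrays labelled GF Card9-/- and 6.05, 6.49 and 7.04 on those labelled GF WT, a difference of -0.03 (95% interval -0.75 to 0.69, limma adjusted p = 0.994). Its highest value, 7.91, came from GF Card9-/- replicate 5, the array with the lowest Sox10 and S100b. The other Gfap probe was at its lowest there, 4.22, and not well above background, so the high Gfap value of that array rests on 1 probe. Without the array the difference of the brightest probe was -0.27. The 5 further day 0 probes of these genes (2 of Elavl4 and 1 each of Uchl1, Nos1 and Gfap) had limma adjusted p from 0.912 to 1. Among them the Uchl1 probe was well above background on 0 arrays of either label. The Gfap probe was so on 3 arrays labelled GF Card9-/- and 5 labelled GF WT.

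The spread at day 0 was a pattern of arrays that most of the genes shared. Relative to its mean over the 13 arrays, GF Card9-/- replicate 5 stood at -1.69 for S100b, -1.54 for Sox10, -1.40 for Ret, -1.38 for Uchl1, -0.89 for Vip and -0.72 for Elavl4, and at -0.11 for Nos1 and 1.43 for Gfap. It was thus the lowest array for 6 of 8 genes and the highest for 1, and it had the lowest share of spots well above background of its day, 54.5%. Replicate 6 of the same label was among the 2 lowest arrays for 7 of 8 genes. Both lie on 1 slide, together with GF WT replicate 6. On these arrays the smooth muscle list (12 contractile genes such as Acta2 and Myh11, all tested) scored -2.11, -1.40 and -1.25, and the other 10 arrays scored between -0.74 and 1.502. The summed smooth muscle level ranged from 99039 to 1013914 units over arrays labelled GF Card9-/- and from 163157 to 901809 over those labelled GF WT, and the part of muscle in the neuron and glia values was not tested. The colonocyte list (9 genes) scored 0.04, 0.06 and -0.67 on the same 3 arrays.

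For 4 of the 8 genes the lower average of day 0 rested on that slide. Without its 3 arrays, 4 of the 8 differences were below 0 and 4 above: Uchl1 0.08, Elavl4 0.11, Ret 0.05 and S100b 0.01, against Nos1 -0.02, Vip -0.13, Sox10 -0.27 and Gfap -0.01. Within slides, the 8 genes were all lower in label GF Card9-/- on slide 4 (-1.11 to -0.35, 2 arrays against 1), 6 of 8 on slide 1, 4 of 8 on slide 2 and 1 of 8 on slide 3. Within the 2 scan sessions 6 of 8 and 8 of 8 were lower.

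**Figure D2:**
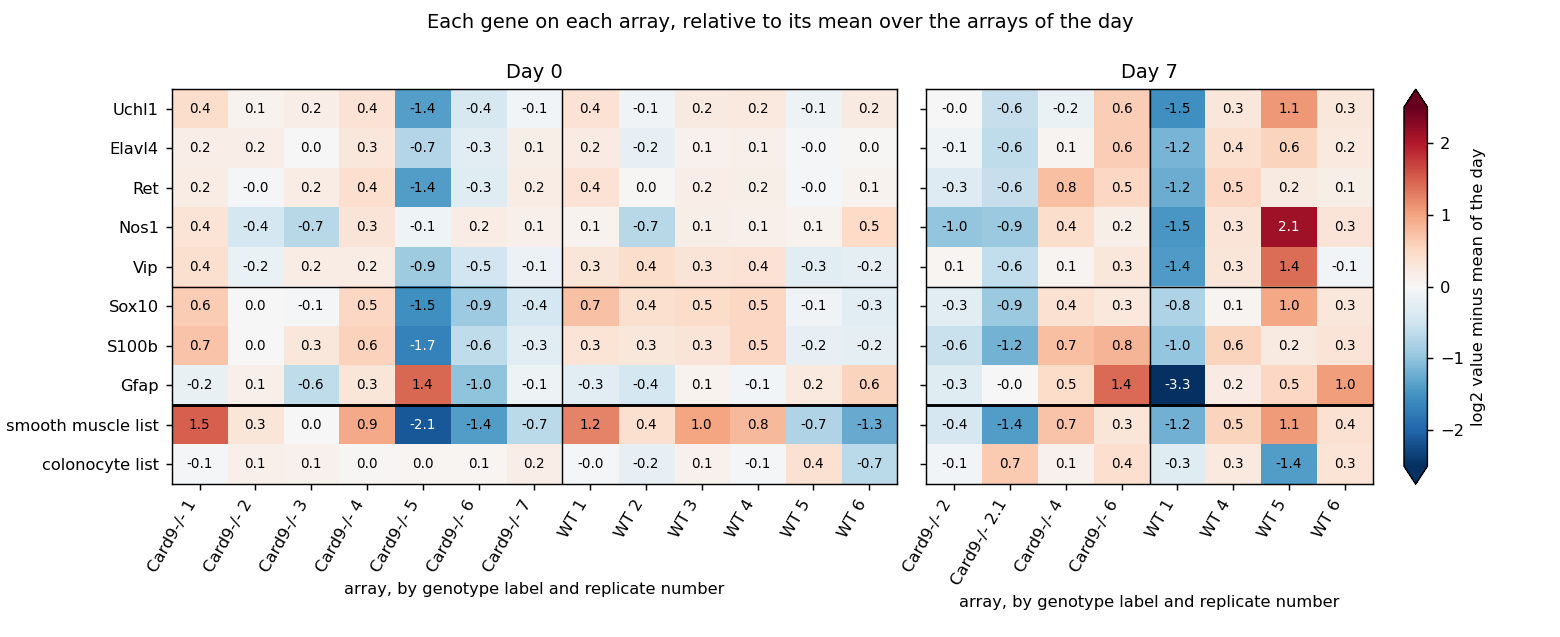
Log2 value minus the mean of the day (color and printed number) for the 5 neuron genes, the 3 glia genes and 2 list scores, on each array of day 0 (left) and day 7 (right). On day 0 the column of GF Card9-/- replicate 5 is below 0 for all 8 genes but Gfap, and on day 7 the column of GF WT replicate 1 is below 0 throughout.

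At day 7 of DSS the 8 genes again showed no detectable difference between the labels. Over the 8 arrays the 6 genes well above background throughout spanned 1.78 (Elavl4) to 2.83 (Vip) on the log2 scale, and Nos1 and Gfap were below that level on 2 and 1 arrays. Of the 8 differences 6 were below 0 and 2 above, with a median of -0.07. None passed an adjusted p of 0.05, none had an unadjusted p under 0.05 (lowest 0.398) and none had labels that did not overlap. Over all 44643 detected probes, 0 (0%) passed the adjusted threshold, 3.38% the unadjusted one and 2.13% did not overlap, and 49.9% of genes lay below 0.

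Uchl1 was read at day 7 by another probe (chromosome 5, 67073886 to 67074977). It measured 8.93, 8.36, 8.77 and 9.55 on GF Card9-/- replicates 2, 2.1, 4 and 6 and 7.40, 9.22, 10.02 and 9.21 on GF WT replicates 1, 4, 5 and 6. All 4 GF Card9-/- values thus lay between the lowest and highest GF WT values. Elavl4 measured 8.34, 7.82, 8.51 and 9.06 against 7.29, 8.86, 9.01 and 8.70 in the same order. The differences were -0.06 for Uchl1 (95% interval -1.36 to 1.23) and -0.03 for Elavl4 (95% interval -1.04 to 0.98), both with a limma adjusted p of 1.

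Ret measured 7.89, 7.64, 8.96 and 8.72 on the arrays labelled GF Card9-/- and 6.97, 8.72, 8.43 and 8.36 on those labelled GF WT, a difference of 0.18 (95% interval -0.89 to 1.26, limma adjusted p = 0.97). Nos1 measured 5.13, 5.19, 6.56 and 6.28 against 4.67, 6.45, 8.24 and 6.45. The lone high Nos1 value was GF WT replicate 5. On that array the other Nos1 probe read 6.10, against 5.84 and 5.77 on GF WT replicates 4 and 6. The size of the high value thus rests on 1 probe. Neither probe was well above background on GF Card9-/- replicate 2.1 or GF WT replicate 1. The Nos1 difference was -0.66 (95% interval -2.39 to 1.06, limma adjusted p = 0.915), and -0.066 without GF WT replicate 5. Vip, read by another probe than at day 0 (chromosome 10, 4699238 to 4699297), measured 9.23, 8.56, 9.25 and 9.47 against 7.76, 9.49, 10.59 and 9.11, a difference of -0.11 (SE 0.56, limma adjusted p = 0.997). GF WT replicate 5 was again the highest array and GF WT replicate 1 the lowest.

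**Figure D3:**
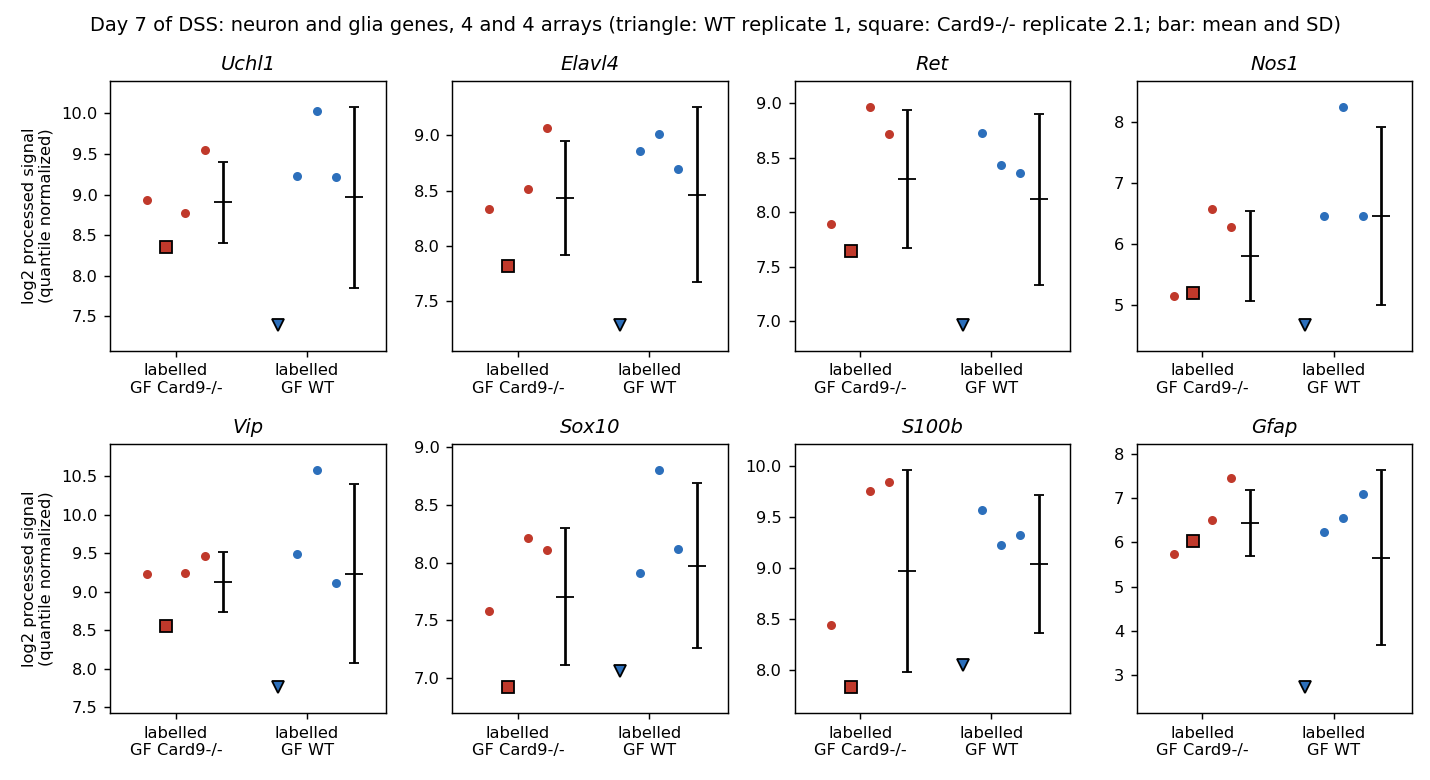
Quantile normalized log2 processed signal (vertical axis, a scale of its own for each gene) of the 8 genes on each day 7 array, by genotype label, 4 and 4 arrays. Bars give the mean and SD of a label. The triangle (GF WT replicate 1) is the lowest array for 6 of the 8 genes and the square (GF Card9-/- replicate 2.1) for the other 2, Sox10 and S100b.

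Sox10, also read by another probe (chromosome 15, 78985518 to 78985577), measured 7.58, 6.92, 8.22 and 8.10 on the arrays labelled GF Card9-/- and 7.06, 7.91, 8.80 and 8.12 on those labelled GF WT. S100b measured 8.45, 7.83, 9.76 and 9.85 against 8.05, 9.57, 9.23 and 9.33. In both, GF Card9-/- replicate 2.1 and GF WT replicate 1 were the 2 lowest arrays, with GF Card9-/- replicate 2 next. The differences were -0.27 for Sox10 (95% interval -1.27 to 0.73, limma adjusted p = 0.94) and -0.07 for S100b (95% interval -1.35 to 1.21, limma adjusted p = 1). Gfap measured 5.73, 6.04, 6.51 and 7.45 against 2.72, 6.24, 6.56 and 7.09, and its difference was 0.78 (95% interval -1.46 to 3.02, limma adjusted p = 0.92). The value of 2.72, on GF WT replicate 1, was not well above background, and with dim values raised to the lowest signal well above background on their array the difference was 0.41. The 4 further probes of day 7 (2 of Gfap, 1 of Nos1 and 1 of Elavl4) held 1 that was not detected, and the other 3 had a limma adjusted p of 0.913 to 0.966.

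GF WT replicate 1, the array with Card9 signal unlike the other 3 of its label, moved these differences, and it had the lowest share of spots well above background of its day, 42.2%. Without it all 8 genes averaged lower under GF Card9-/-: Uchl1 -0.58, Elavl4 -0.42, Ret -0.20, Nos1 -1.26, Vip -0.60, Sox10 -0.57, S100b -0.40 and Gfap -0.20, with limma adjusted p of 0.941 or more. On the 2 slides that hold 1 array of each label, 7 of 8 and 8 of 8 genes were lower under GF Card9-/- (-1.35 to 0.12 and -1.73 to -0.20), and with slide as a fixed block Ret and Gfap turned to -0.77 and -0.78. Leaving out instead the highest array, GF WT replicate 5, put 6 of the 8 above 0. The smooth muscle list scored -1.21 on GF WT replicate 1 and -1.39 on GF Card9-/- replicate 2.1, the arrays low for most of the genes, and 1.06 on GF WT replicate 5, while the colonocyte list scored -0.30, 0.65 and -1.39 there. The summed smooth muscle level was 125551 to 594567 units under GF Card9-/- and 172305 to 699017 under GF WT, and its part in the differences was not tested.

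Whether the difference between labels changed from day 0 to day 7 could be tested for the 5 genes whose brightest probe was the same on both designs. The day 7 difference minus the day 0 difference was 0.04 for Elavl4, 0.42 for Ret, -0.58 for Nos1, 0.25 for S100b and 0.81 for Gfap. None passed the test (limma interaction contrast, adjusted p 0.891 to 0.992), and over all 23633 probes shared by the designs 0 (0%) passed, against 7.14% at an unadjusted p under 0.05. Without day 7 GF WT replicate 1 the values were -0.35 for Elavl4, 0.034 for Ret, -1.18 for Nos1, -0.085 for S100b and -0.17 for Gfap, so that 4 of the 5 were below 0 in place of 1, and none passed (limma adjusted p 0.706 or more). Uchl1, Vip and Sox10 were read by different probes, so this was not tested for them.

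**Figure D4:**
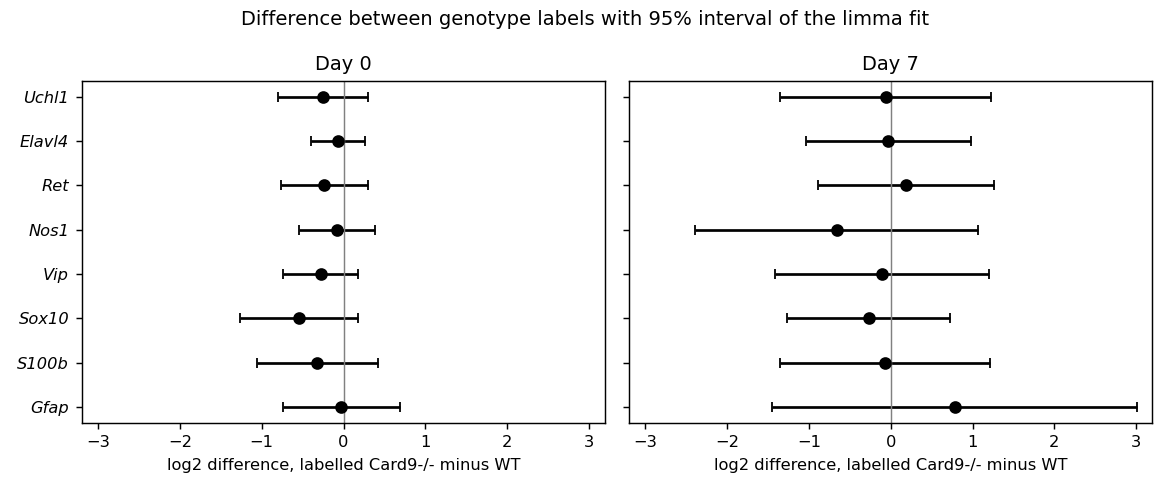
Log2 difference (horizontal axis), arrays labelled GF Card9-/- minus GF WT, of the 8 genes at day 0 (left, 7 and 6 arrays) and day 7 (right, 4 and 4 arrays), points with the 95% interval of the limma fit. Every interval spans 0, and those of day 7 are wider.

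Neuron and glia genes were then set against each other across arrays, in the 15 pairs of a neuron gene with a glia gene. At day 0, 8 of the 15 pairs were correlated after adjustment over the 15 (permutation test of Pearson's r), all positively: Sox10 and S100b each with Uchl1, Elavl4, Ret and Vip. The highest was Vip with S100b (r = 0.94, permutation p = 1e-05, the smallest these resamples can give, adjusted p = 7.5e-05, Spearman's rho = 0.81, permutation p = 0.00109, adjusted p = 0.00545). Uchl1 with S100b gave r = 0.94 and rho = 0.87 (adjusted permutation p = 0.0003 and 0.0027), and Elavl4 with Sox10, the lowest of the 8, r = 0.80 and rho = 0.73 (adjusted permutation p = 0.00557 and 0.0203). Nos1 with S100b gave r = 0.03 and with Sox10 0.05, and none of the 5 pairs with Gfap passed, 4 of them with r from -0.56 to -0.35. The sign of the Gfap pairs depended on the arrays used, and 0 passed in any subset. Without GF Card9-/- replicate 5, where the 2 Gfap probes disagreed, 4 of the 5 were positive (median r = 0.43, against -0.46 with it), whereas without the 2 arrays farthest from the median of the neuron gene 2 of 5 were (median r = -0.14), without slide 4 3 of 5 (0.03) and within scan session 1 2 of 5 (-0.37).

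Fewer pairs passed when the low arrays of day 0 were left out. Without GF Card9-/- replicate 5 alone, 6 of the 15 pairs passed (median r = 0.57, against 0.80 over all arrays). Without the 2 arrays farthest from the median of the neuron gene, which were GF Card9-/- replicates 5 and 6 for Uchl1, Elavl4, Ret and Vip, 2 of the 15 pairs still passed: Vip with S100b (r = 0.87, adjusted permutation p = 0.0207) and Vip with Sox10 (r = 0.83, adjusted permutation p = 0.0253). Uchl1 with S100b fell to r = 0.72 (adjusted permutation p = 0.076) and Elavl4 with S100b to r = 0.31 (0.585). Without the 3 arrays of slide 4, which include both low ones, 3 pairs passed, the same 2 of Vip (r = 0.84 with S100b and 0.80 with Sox10, adjusted permutation p = 0.0253 and 0.0412) and Uchl1 with S100b (r = 0.84, adjusted permutation p = 0.0253). Vip with S100b gave r = 0.98 within the 7 arrays labelled GF Card9-/- (exact adjusted p = 0.00397), 0.95 within the 6 labelled GF WT (exact adjusted p = 0.245), 0.89 within scan session 1 (6 arrays, exact adjusted p = 0.396) and 0.98 within session 2 (7 arrays, exact adjusted p = 0.00372). Over the 15 pairs, 8 passed within the arrays labelled GF Card9-/-, 0 within GF WT, 0 within session 1 and 8 within session 2, the label and the session that hold the low arrays.

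At day 7 all 15 pairs had a positive r (0.62 to 0.93), and 10 passed (exact permutation test, adjusted over the 15). Nos1 with Sox10 was highest (r = 0.93, exact permutation p = 0.00186, adjusted p = 0.014), followed by Ret with S100b (r = 0.93, exact permutation p = 0.00136, adjusted p = 0.014). Gfap had positive r with all 5 neuron genes, and 3 passed, with Uchl1 (0.84), Elavl4 (0.86) and Ret (0.83). Without GF WT replicate 1, where Gfap was not well above background, 0 of these 5 passed and their median r went from 0.83 to 0.51. Whether its relation differed between the days was not tested. By Spearman's rho 0 pairs passed (lowest exact adjusted p = 0.0536, rho 0.86 to 0.90), and 0 passed without the 2 farthest arrays, where only 6 remained. Without GF WT replicate 1 alone, 1 of the 15 passed and r ran from 0.21 to 0.97.

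**Figure D5:**
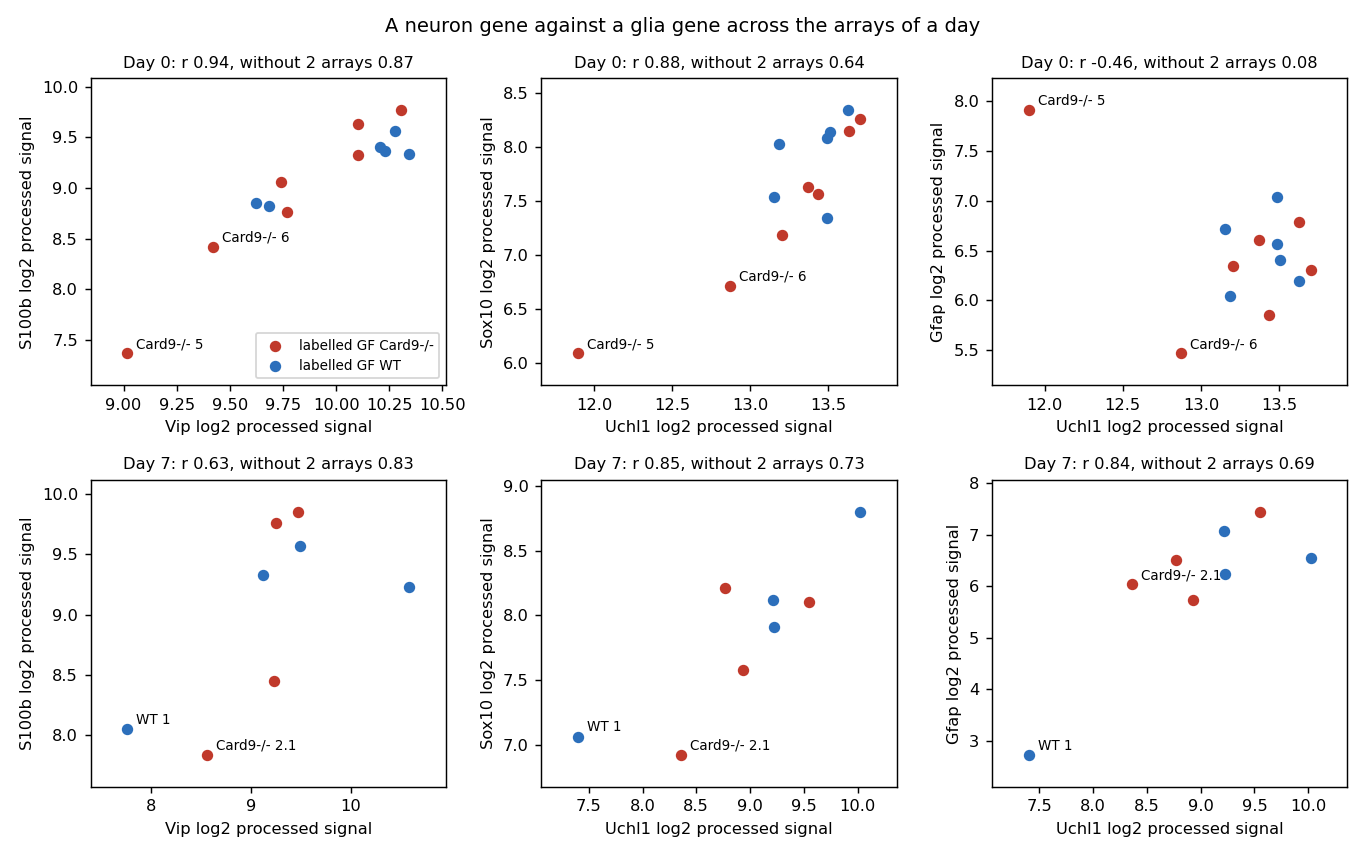
Log2 processed signal of a glia gene (vertical axis) against a neuron gene (horizontal axis) on the arrays of day 0 (upper row, 13 arrays) and day 7 (lower row, 8 arrays), colored by genotype label, with Pearson's r over all arrays and without the 2 farthest from the median of the neuron gene. Vip with S100b keeps r = 0.87 at day 0 without the 2 arrays, whereas Uchl1 with Gfap goes from -0.46 to 0.08.

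The same genes followed the smooth muscle list across arrays, in a family of 16 relations per day (8 genes with the smooth muscle and the colonocyte scores) chosen after the values had been seen. The share of all genes that would pass with these scores was not determined at either day. At day 0 Sox10 had r = 0.95 and rho = 0.96 with the smooth muscle score (adjusted permutation p = 8e-05 and 0.00024), S100b r = 0.91 and rho = 0.93 (8e-05 and 0.00024) and Vip r = 0.91 and rho = 0.84 (0.000107 and 0.00293). These 3 were also high without the 2 arrays farthest from the median score (r = 0.93, 0.91 and 0.83). Uchl1, Elavl4 and Ret gave r = 0.79, 0.74 and 0.73 over all arrays (adjusted permutation p = 0.0008, 0.00549 and 0.00208) and 0.66, 0.43 and 0.51 without those 2, and Nos1 and Gfap gave -0.01 and -0.35 and did not pass. For Sox10 the relation gave r = 0.99 within each label (exact adjusted p = 0.00159 for 7 arrays and 0.0222 for 6), and 0.90 and 0.96 within the 2 scan sessions (exact adjusted p = 0.139 and 0.00317). Of the 8 genes, 6 passed within GF Card9-/- and within session 2, 1 (Sox10) within GF WT and 0 within session 1. Without GF Card9-/- replicate 5, 5 of the 8 passed, and without the 3 arrays of slide 4, 4 did. Within GF WT S100b gave r = 0.93, Vip 0.89, Uchl1 0.44 and Elavl4 0.41 (exact adjusted p = 0.106, 0.167, 0.474 and 0.492). No gene passed with the colonocyte score (r from -0.23 to 0.01).

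At day 7, 7 of the 8 genes passed with the smooth muscle score, from r = 0.82 for Uchl1 (exact adjusted permutation p = 0.0201) to 0.97 for Sox10 (0.00675), and Gfap did not (r = 0.65, 0.126). By Spearman's rho Sox10 (0.93, exact adjusted p = 0.0357) and Nos1 (0.90, exact adjusted p = 0.0365) passed. Without GF WT replicate 1, 5 of the 8 passed, Elavl4, Ret, Nos1, S100b and Sox10, the last at r = 0.96 (exact adjusted p = 0.0175). With the colonocyte score again none passed. As at day 0, the share of all genes that would pass was not determined.

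Other neuron and glia genes were read from lists. Of 37 further neuron genes tested at day 0 and 37 at day 7, 0 passed an adjusted p of 0.05 (limma) at either day, and 2 and 0 had an unadjusted p under 0.05, against 5.84% and 3.38% of all detected probes. Of 14 and 13 further glia genes 0 passed by either measure. At day 0 all 13 pan-neuronal genes lay below 0 under GF Card9-/- (median -0.20), against 44.1% of all genes. Without GF Card9-/- replicate 5, 9 of the 13 did (median -0.01), and without the 3 arrays of slide 4, 1 did (median 0.11). Over all arrays Stmn2, a microtubule regulator of growing axons, was at -0.26 (limma adjusted p = 0.912). Penk, the enkephalin precursor, was at -0.52 (limma adjusted p = 0.912), Dbh, which makes noradrenaline, at -0.45 (0.849), and Chat, which makes acetylcholine, at 0.30 (0.746), the last 2 with unadjusted p of 0.0478 and 0.0233. Of the 14 glia genes 9 were below 0, among them Scn7a, a sodium channel gene, at -0.63 (limma adjusted p = 0.912). At day 7 the pan-neuronal genes split 6 above and 7 below 0 with a median of -0.02 (12 below 0 and -0.44 without GF WT replicate 1), Elavl3 being the furthest at -0.96 (limma adjusted p = 0.913), and Chat was at 0.64 (0.913). Of the 13 glia genes 7 were below 0 (median -0.14), and 10 without GF WT replicate 1 (median -0.38).

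The pathways around Ret, Nos1 and Vip likewise held no call. Of 11 tested genes of Ret and endothelin signalling at day 0, 9 were below 0, with Gdnf, the ligand that acts on Ret through Gfra1, at -1.09 (SE 0.80, limma adjusted p = 0.912), Zeb2, a crest transcription factor, at -0.97 (0.883) and Gfra1 itself at -0.68 (0.912). The median of the 11 was -0.39, and -0.17 without GF Card9-/- replicate 5, the array with the lowest smooth muscle score (-2.11). At day 7, 6 of 11 were below 0, and among the genes well above background on most arrays Gfra4 was at 0.64 and Artn at -0.55 (both limma adjusted p = 0.913). The median was -0.06, and -0.35 without GF WT replicate 1. Of the 6 listed genes of Nos1 and Vip signalling, 5 were below 0 at day 0. Among them were the soluble guanylate cyclase subunits Gucy1a1 (-0.70) and Gucy1b1 (-0.66) and the Vip receptor Vipr2 (-0.32), all with a limma adjusted p of 0.912. The median of the 6 was -0.48, and -0.26 without GF Card9-/- replicate 5. At day 7, 3 were above 0 and 3 below, and Pde5a, which degrades cGMP, was the furthest at 0.70 (limma adjusted p = 0.913). Without GF WT replicate 1, 2 were above 0 and 4 below, and the median went from -0.11 to -0.23.

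Genes most like the 8 were sought by the correlation of their label-centred values with the mean label-centred profile of the 8. At day 0, over 13 arrays and 17395 genes well above background throughout, they were Pgbd5, Mest, Adgrb2, Fbxl16 and Metrn, each with r = 0.97. At day 7, over 8 arrays and 13992 genes, they were Slc10a4l (r = 0.999), Agtpbp1, Tshz2, Mab21l2 and Hoxb5 (all 0.99). None was in both sets, and the 3 day 0 genes that also entered at day 7, Adgrb2, Metrn and Fbxl16, ranked 243, 705 and 778 there. The 5 day 7 genes ranked 152 (Slc10a4l), 441 (Agtpbp1), 542 (Tshz2), 461 (Mab21l2) and 1287 (Hoxb5) at day 0. As a description, with arrays shared by all values, the median r was 0.91 at day 0 and 0.96 at day 7 for the pan-neuronal list and 0.86 and 0.90 for smooth muscle, against 0.21 and 0.13 for the wider glia list, 0.05 and -0.15 for colonocyte genes and -0.18 and -0.13 for all genes.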

How the data were processed

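Total colon RNA (RIN above 9, per the labels) was measured on 21 1-color Agilent arrays, 13 of day 0 and 8 of day 7. The authors deposited scanner files of intensity values, background-corrected by Agilent Feature Extraction 10.7.3.1 (submitters' processing notes), with a p-value per spot for signal above background, also as deposited. They also deposited a table of log2 values (array medians 6.63 to 6.64 at day 0 and 6.21 at day 7, r with the log2 processed signal 0.976 to 0.990 and 0.966 to 0.991), whose starting signal column is not given in the sources used here and which served only as an alternative.

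Per day, spots of a probe were averaged, processed signals were log2 transformed and quantile normalized, and probes were tested when detected (p under 0.05 on at least 50% of spots) on 60% of the arrays of a label. This left 47410 probes at day 0, from 56605, and at day 7 44643 from 55681. Tested probes were named through their RefSeq accession (29032 and 24260), by the array file (14678 and 6908) or not at all (3700 and 13475). Labels were compared with limma 3.58.1 (R 4.3.3, Benjamini-Hochberg, threshold 0.05), and the change between days by an interaction contrast. Correlations used two-sided permutation tests, exact under 10 arrays and otherwise with 100000 resamples. Precision is limited by how many arrays a label has. The fits were tested on simulated data. Figures were drawn with matplotlib 3.10.9.

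Named were the 8 genes, Card9, per list and day up to 4 genes with the largest difference among those well above background on 60% of the arrays of a label, any list gene past the threshold (0 were), and the 5 genes most like the 8. The members and lists were chosen with earlier results of these data known. Alternatives were 75th percentile scaling, normexp with an offset of 50, the authors' table, other filters and floors, slide, scan session and replicate blocks, each array left out, and the mean over a gene's probes.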

Additional observations from a re-analysis of the deposited data

Results flagged for a closer look

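Of 32 groups of values examined (8 genes, both labels, both days), 2 held an array far from the rest of its group, and chance alone gives about 1 in 20. Nos1 on GF WT day 0 replicate 2 was 5.05, with the nearest of the other 5 arrays at 5.85 (a gap of 0.659 of the group's range). Ret on GF Card9-/- day 0 replicate 5 was 7.07, with the nearest of the other 6 at 8.17 (a gap of 0.609 of the range).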

How the results depend on the processing

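Of 467 values of single genes under other settings, 0 passed the threshold (lowest limma adjusted p 0.56), 418 kept their direction and 49 turned it. Probes called at day 0 numbered 12, and 27 with normexp, 22 with the authors' table, 22 when tested probes had to be well above background, and 7 with the replicate number as a block. Without the 3 arrays of slide 4, day 0 differences turned for Uchl1 (0.076), Elavl4 (0.11), Ret (0.053) and S100b (0.0078). Leaving out single arrays moved day 0 differences of Elavl4 from -0.12 to 0.046, Nos1 from -0.23 to 0.030 and Gfap from -0.27 to 0.14, and kept those of Uchl1 (-0.34 to -0.040), Ret (-0.32 to -0.018), Vip (-0.37 to -0.15), S100b (-0.46 to -0.062) and Sox10 (-0.69 to -0.33) below 0.

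At day 7, with slide as a fixed block Ret turned to -0.77 and Gfap to -0.78. With the replicate number as a block Elavl4 turned to 0.012, Vip to 0.056, S100b to 0.36 and Sox10 to 0.14. Whether replicate numbers pair the samples could not be settled, since some same-numbered arrays lie on different slides. Deviations of same-numbered arrays correlated at -0.02 to 0.37 at day 0 and 0.03 and 0.11 at day 7. At day 0, 2 of 6 arrays matched their own number best. At day 7 replicate 4 did and replicate 6 did not. Without the 2 arrays with pancreas genes, chosen after seeing the data, Vip turned to 0.0022 and S100b to 0.059, and over the mean of a gene's probes Elavl4 turned to 0.22. Leaving out single arrays gave 0 to 1 called probes (1 without GF WT replicate 1) and differences of -0.58 to 0.29 for Uchl1, -0.42 to 0.18 for Elavl4, -0.20 to 0.41 for Ret, -1.26 to -0.066 for Nos1, -0.60 to 0.34 for Vip, -0.40 to 0.31 for S100b, -0.57 to 0.0076 for Sox10 and -0.20 to 1.26 for Gfap. For the change between days it gave 0 to 2 called probes and -0.35 to 0.25 for Elavl4, -0.17 to 1.29 for Gfap, -1.18 to 0.014 for Nos1 and -0.085 to 0.63 for S100b.

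Pairs called at day 0 numbered 8, and 6 without GF Card9-/- replicate 5, 3 without slide 4 and 2 without the farthest arrays. At day 7 they numbered 10, and 0 by Spearman's rho, 0 without the farthest arrays and 1 to 15 with single arrays left out (1 when GF WT replicate 1 was left out, 15 when GF WT replicate 5 was). The list values without single arrays or slide 4 were chosen after seeing the data. The causes were not tested.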
